A study of Homo sapiens with 346 samples.

Results

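The genes described here are the keratins of simple epithelium and a few relatives found beside them: the type II genes KRT8, KRT7, KRT80 and KRT81 and the type I genes KRT18, KRT19, KRT10 and KRT23. They were chosen by name, and all 8 had a row in the gene table of each line, out of 31463 genes listed in either table. Keratins are the intermediate filament proteins of epithelial cells. A filament is built only from pairs of 1 type I with 1 type II chain, and a keratin chain left without a partner is degraded in the cell. Simple epithelia such as gut, liver and gland ducts make KRT8 with KRT18 as their basic pair and add KRT19 or KRT7 by tissue.

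Single cells were sequenced with Smart-seq2, a protocol that copies polyadenylated RNA into full-length cDNA and keeps no record of strand. HCT-116, a human colorectal carcinoma line, was sequenced in 91 live cells and in 92 cells fixed in 80% methanol and stored for 1 week. The second line carries the label HepG2, a human liver carcinoma line, with 68 live and 83 fixed cells treated in the same way. Both lines grew in DMEM with serum, penicillin and streptomycin, the labels name no further agent than methanol, and the fixed cells were taken from the same culture as the live ones. Per the study's methods, the HCT-116 work was done once and the HepG2 work in separate replicate experiments. The columns do not show which experiment a cell came from, so each HepG2-labelled group pools them and each group was treated as 1 sample. Each deposited sample is 1 cell, and cells are not replicates: no p-value was computed, SDs are over cells, and the 95% intervals given with a share of cells (exact, by the method of Clopper and Pearson) hold counting error alone. The fixed libraries were made after storage, so that fixation and library batch cannot be told apart. Handling also followed the treatment: live cells were stained with propidium iodide before sorting, while fixed cells were rehydrated and washed with an RNase inhibitor.

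Median total reads per cell lay between 1.8 and 2.5 M in the 4 groups, with the lowest cell at 0.2 M, in fixed HCT-116. Fixed cells had fewer genes detected, with medians of 12031 (live) and 10359 (fixed) in HCT-116 and 13887 and 12293 in the HepG2-labelled line. Shares of cells with a low gene are thus compared at unequal detection. The lowest share of reads assigned to a transcript was 20.5%, in a live HepG2-labelled cell. The label HepG2 was not borne out by its markers: of 17 hepatocyte genes, 9 had a row in that table, 0 of them exceeded 1 TPM in 50% of the live or of the fixed cells, and their summed level had a median of 0.0955 TPM in live and of 0 in fixed cells (ranges 0 to 35.9 and 0 to 89.7). In the same cells 10 of 11 genes listed for luminal breast epithelium passed that limit, in HCT-116 1 of them. The line keeps its label as a name below. In HCT-116, 1 of the 6 intestinal genes with a row, the transcription factor gene CDX2, passed the limit. Among the HepG2-labelled columns, 1 live and 1 fixed column held equal values for every gene, and 6 fixed columns correlated above 0.95 with another fixed column. Results that depend on them are given with and without them.

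KRT8, KRT7, KRT80, KRT81 and KRT18 lie together on chromosome 12, within 784 kb (GRCh38, RefSeq annotation of GRCh38.p14). KRT18 (chr12:52948855-52952906, plus strand) is the type I gene that stands at the edge of the type II cluster, next to KRT8 (chr12:52897191-52949860, minus strand), its partner. The 2 gene models run in opposite directions and overlap by 1 kb at their 5′ ends, while their reference transcripts are 44 kb apart. KRT7 (chr12:52233243-52255853, plus strand), KRT80 (chr12:52168996-52192014, minus strand) and KRT81 (chr12:52285913-52291534, minus strand) complete the set on this chromosome. KRT81, a hair keratin, lies wholly inside the model of KRT86 on the other strand. Since the reads keep no strand and some hair keratins, KRT81 among them, are near-identical in sequence, the KRT81 values are uncertain. KRT86 itself had means of 0.713 and 0.654 TPM in HCT-116, live and fixed, and of 3.09 and 3.31 TPM in live and fixed HepG2-labelled cells. The type I genes KRT19 (chr17:41523617-41528308), KRT10 (chr17:40818117-40822614) and KRT23 (chr17:40922700-40937646) are on the minus strand of chromosome 17. The reference transcript of KRT8 is the longer of the pair, with 1784 bases in 8 exons and a GC content of 59.3%. That of KRT18 has 1413 bases in 7 exons and a GC content of 58.2%. Over the 8 members, lengths ran from 1390 (KRT19) to 3873 bases (KRT80) and GC content from 50.7% (KRT23) to 62.3% (KRT81). Whether length or GC content bears on the differences below was not tested.

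The first question was how much of each keratin the cells held. Levels are in TPM, which divides reads by transcript length and scales every cell to the same total. KRT8, the basic type II keratin of simple epithelium, ranged from 547 TPM in the lowest to 4960 TPM in the highest live HCT-116 cell, with a median of 1739. Fixed HCT-116 cells ran from 455 through a median of 1005 to 3189 TPM. In the HepG2-labelled cells the lowest, median and highest levels were 971, 10965 and 38433 TPM when live and 2100, 5479 and 16781 TPM when fixed. KRT8 was thus high in every cell of the 4 groups, and its live and fixed ranges overlapped in both lines. Of the fixed HCT-116 cells, 80 of 92 lay below the median of the live ones.

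KRT18, the type I partner of KRT8, had a lowest, median and highest level of 429, 1319 and 4581 TPM in live and of 333, 1162 and 4203 TPM in fixed HCT-116 cells. In the HepG2-labelled cells these values were 755, 5994 and 22651 TPM in live cells and 1571, 5111 and 14960 TPM when fixed. The live and fixed ranges of KRT18 covered one another almost fully. KRT19, the smallest keratin, which lacks most of the tail domain, ran from 105.4 through 769 to 3697 TPM in live and from 58.999 through 645 to 2702 TPM in fixed HCT-116 cells. With the HepG2 label it ran from 531 through 2152 to 6450 TPM in live and from 186.1 through 1355 to 4355 TPM in fixed cells. By their medians, these 3 genes stood far above the other members in every group.

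The remaining members were low. KRT10, in skin a keratin of the layers above the basal one, was listed above 0 in all 334 cells but at medians of only 16.1 and 15.2 TPM in HCT-116, live and fixed, and of 12.1 and 15.4 TPM in live and fixed HepG2-labelled cells. KRT80, an epithelial keratin linked to desmosomes, had a median of 0 in both HCT-116 groups and of 46.5 TPM in live HepG2-labelled cells against 35.3 TPM after fixation, with a highest cell at 1021 TPM. KRT7, the type II keratin of ducts and glands, had medians of 1.58 and 2.09 TPM in HCT-116, live and fixed, and of 2.22 and 9.77 TPM in live and fixed HepG2-labelled cells. The median of KRT81 was 0 in each of the 4 groups. KRT23 was seen mainly in HCT-116, where its highest cells reached 103.96 TPM live and 225 TPM fixed while its medians were 0 and 1.65. The order of the means was the same in all 4 groups for the leading genes, KRT8, KRT18 and KRT19, except in fixed HCT-116 cells, where KRT18 stood above KRT8 by less than the SD over cells.

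**Figure D1:**
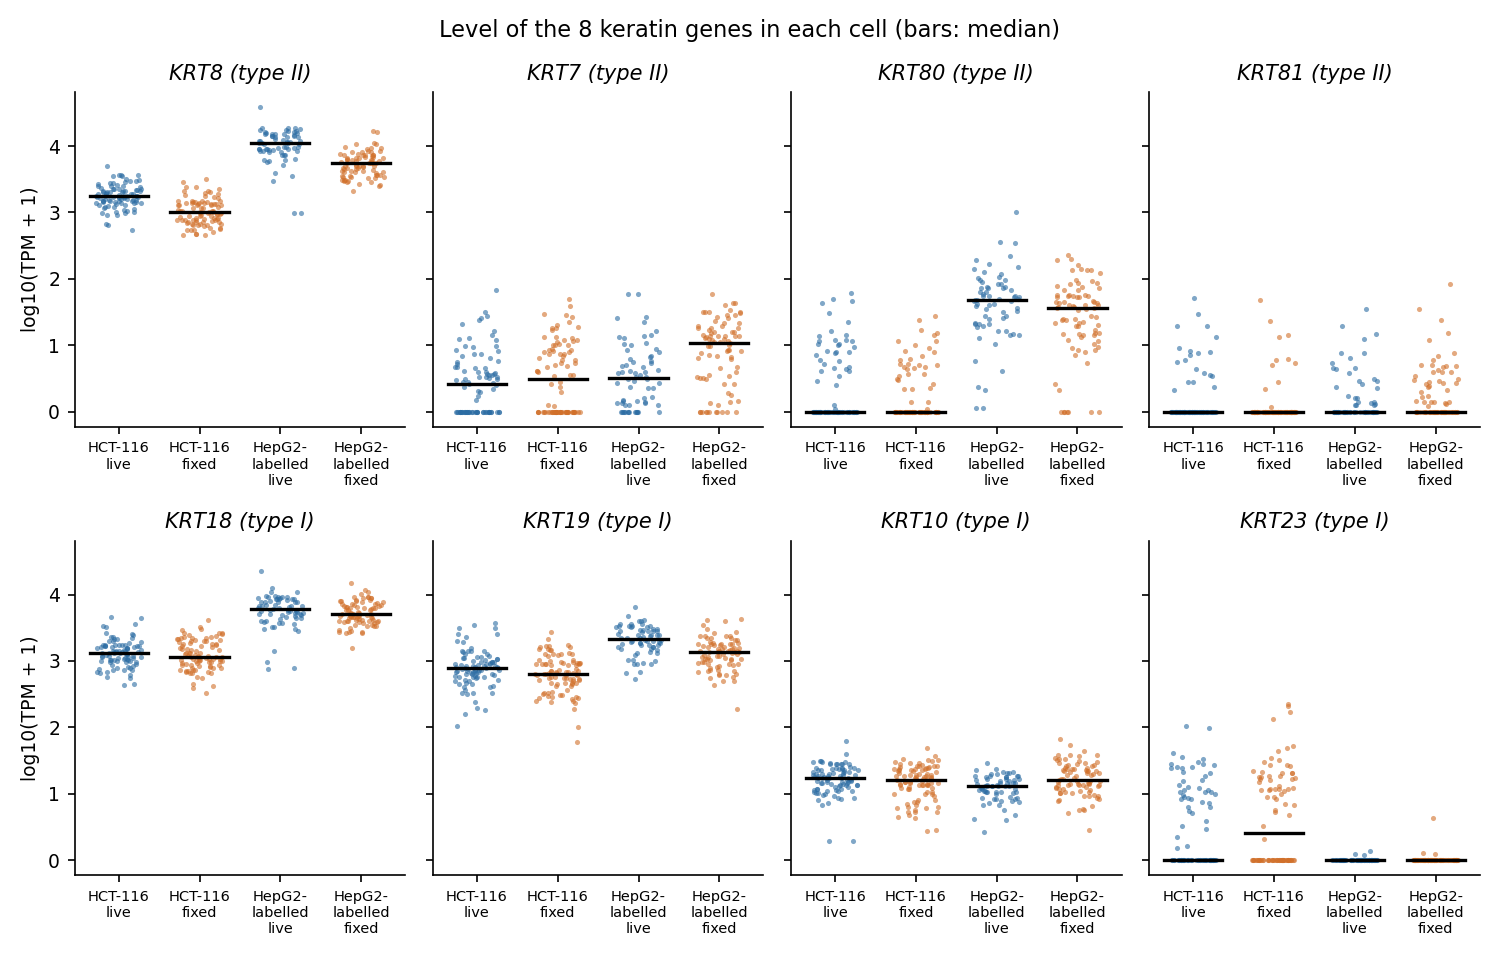
Level of each keratin gene in each cell, as log10(TPM + 1), with 1 point per cell and a bar at the median of the group (91 live and 92 fixed HCT-116 cells, 68 live and 83 fixed HepG2-labelled cells). KRT8, KRT18 and KRT19 have the highest medians in each group, KRT10 is low and present in all cells, and KRT80 and KRT23 each stand out in 1 line.

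The share of cells with a keratin split the members into 3 sorts. KRT8, KRT18, KRT19 and KRT10 were above 0 in 100% of the cells of each group (lower bounds of the 95% intervals between 94.7% and 96.1%). KRT80 was above 0 in 68 of 68 live and 76 of 83 fixed HepG2-labelled cells (91.6%, interval 83.4 to 96.5), but in 35 of 91 live (38.5%, 28.4 to 49.2) and 34 of 92 fixed HCT-116 cells (36.96%, 27.1 to 47.7). KRT23 went the other way, with 44 of 91 live (48.4%, 37.7 to 59.1) and 47 of 92 fixed HCT-116 cells (51.1%, 40.4 to 61.7) against 3 of 68 live and 3 of 83 fixed HepG2-labelled cells. In that line KRT23 exceeded 1 TPM in 0 of the 68 live cells, which allows a share of up to 4.41% by the limit of 3 cells in 68 (upper bound of the exact interval 5.28%), and in 1 of the fixed cells.

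KRT7 was found in 58.2% of live (interval 47.4 to 68.5) and 56.5% of fixed HCT-116 cells (45.8 to 66.8), and in 79.4% of live (67.9 to 88.3) and 86.7% of fixed HepG2-labelled cells (77.5 to 93.2). KRT81 was the rarest in HCT-116, in 20 of 91 live and 11 of 92 fixed cells, and was in 28 of 68 live and 39 of 83 fixed HepG2-labelled cells. Within each line the live and fixed intervals of KRT7, KRT23 and KRT81 overlapped. With the reads of each cell thinned to 500000, which left out 3 fixed HCT-116 cells, KRT80 was in 98.5% of live and 91.6% of fixed HepG2-labelled cells and KRT23 in 46.2% and 47.2% of live and fixed HCT-116 cells. KRT7 then came to 25.3% (live) and 28.1% (fixed) for HCT-116 and to 44.1% and 66.3% of live and fixed HepG2-labelled cells, where the thinned reads count only transcripts matched to the gene. Cells held a median of 5 members above 1 TPM in both HCT-116 groups and of 6 in both HepG2-labelled groups, and no cell fell below 3.

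Because keratins work in pairs, the presence of both types was counted within each cell. Every one of the 334 cells held at least 1 type I and 1 type II member above 10 TPM, which KRT8, KRT18 and KRT19 alone ensured. No cell therefore had a keratin of 1 type alone. The rarer genes were found both together and apart: above 1 TPM, KRT23 and KRT80 occurred together in 17 of 91 live HCT-116 cells, KRT23 without KRT80 in 25, KRT80 without KRT23 in 16 and neither in 33. In fixed HCT-116 cells these numbers were 17, 30, 14 and 31 of 92. Genes this low can be missed in a cell that holds them, and all these cells also held KRT8 and KRT18. The counts therefore do not show whether KRT23 and KRT80 pair.

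The keratin mRNA of a cell was made up almost wholly of 3 genes. Taking the summed TPM of all keratin rows of a cell as its pool, KRT8, KRT18 and KRT19 together held a mean of 98.7% ± 0.856 (SD) in live and 98.1% ± 1.42 in fixed cells of HCT-116, and 99.4% ± 0.477 in live and 99.1% ± 0.856 in fixed HepG2-labelled cells. The pool came to a mean of 0.438% ± 0.1803 of all TPM in HCT-116 when live and 0.337% ± 0.145 when fixed. It was larger with the HepG2 label, 2.02% ± 0.924 when live and 1.31% ± 0.540 when fixed, with 6.32% in the highest live cell.

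Within the pool the share of KRT8 was lower, and that of KRT18 higher, in fixed cells of both lines. As parts of a whole the shares are not independent, and a lower share of KRT8 by itself raises the others. The mean TPM of KRT18 was not higher in fixed cells of either line (log2 ratios of fixed to live -0.06 in HCT-116 and -0.17 in the HepG2-labelled line). KRT8 held 43.8% ± 5.57 of the pool in live and 33.6% ± 5.59 in fixed cells of HCT-116, and 55.8% ± 4.59 in live and 43.9% ± 5.17 in fixed HepG2-labelled cells. KRT18 held 33.4% ± 8.03 and 41.2% ± 10.5 in live and fixed HCT-116 and 31.3% ± 4.67 and 43.8% ± 7.24 in live and fixed HepG2-labelled cells. The difference in KRT8 share was larger than the SD over cells in each line, whereas for KRT18 it was so in the HepG2-labelled cells and not in HCT-116. KRT19 held 21.4% ± 9.72 and 23.3% ± 11.2 in HCT-116 and 12.3% ± 4.45 and 11.4% ± 4.39 in the HepG2-labelled cells, differences well within the SD.

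**Figure D2:**
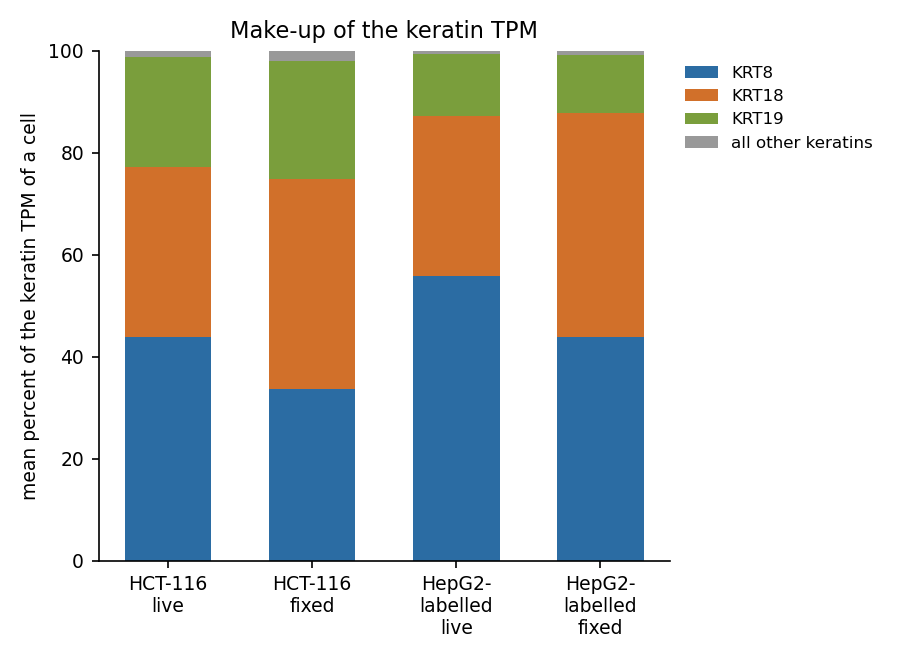
Make-up of the summed keratin TPM of a cell, as the mean percent over the cells of each group, with KRT8 in blue, KRT18 in orange, KRT19 in green and all other keratins in grey. The KRT8 part is 43.8% in live and 33.6% in fixed cells of HCT-116, and 55.8% and 43.9% in live and fixed HepG2-labelled cells.

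The ratio of KRT8 to KRT18 within a cell does not depend on how the cell's TPM values are scaled, since both levels are divided by the same total. In live HCT-116 cells the log2 of this ratio ran from -0.37 through a median of 0.47 to 1.63, and in fixed cells from -1.68 through -0.31 to 0.91. In the HepG2-labelled cells it ran from -0.24 through 0.82 to 2.20 when live and from -1.10 through 0.02 to 0.73 when fixed. The live and fixed ranges overlapped in both lines, with the fixed cells on the lower side. KRT8 exceeded KRT18 in 77 of 91 live HCT-116 cells (84.6%, interval 75.5 to 91.3) and in 25 of 92 fixed ones (27.2%, 18.4 to 37.4). With the HepG2 label it did so in 67 of 68 live (98.5%, 92.1 to 99.96) and 46 of 83 fixed cells (55.4%, 44.1 to 66.3).

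The shift from live to fixed cells was of much the same size in both lines. The difference of the medians was -0.79 on the log2 scale in HCT-116 and -0.80 in the HepG2-labelled cells, a 1.73-fold and a 1.74-fold lower ratio, against SDs over cells between 0.32 and 0.46 within the groups. Of the fixed cells, 87 of 92 in HCT-116 and 83 of 83 in the HepG2-labelled line lay below the median of the live cells. In HCT-116, 40 of the 92 fixed cells lay below every live cell, and 7 of the 91 live cells above every fixed one. In the HepG2-labelled line 49 of the 68 live cells lay above every fixed cell and 17 of the 83 fixed cells below every live one. The last count rested on the column with equal values in a live and a fixed cell, which held the lowest live ratio: without it, 40 of 82 fixed cells lay below every live cell and KRT8 exceeded KRT18 in 67 of 67 live cells. Without the 6 similar columns, 11 of 77 fixed cells lay below every live one.

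The shift was of like size among live and fixed cells paired on total reads within 10%, at -0.78 over 68 pairs in HCT-116 and -0.83 over 43 pairs in the HepG2-labelled line. In these pairs KRT8 exceeded KRT18 in 59 of 68 live and 18 of 68 fixed HCT-116 cells, and in 42 of 43 live and 20 of 43 fixed HepG2-labelled cells. The ratio was also taken from the transcript values, which are CPM (reads scaled to a common total, not divided by length), a choice made after seeing the data. Its median then went from 0.80 in live to 0.02 in fixed HCT-116 cells and from 1.15 to 0.35 in the HepG2-labelled ones, a shift of similar size. The point of equality depends on the unit: in CPM, KRT8 exceeded KRT18 in 90 of 91 live and 48 of 92 fixed HCT-116 cells, and in 68 of 68 live and 69 of 83 fixed HepG2-labelled ones. Single transcripts carried both genes: NM_002273.3 held between 98.3% and 99.8% of the CPM of KRT8, and NM_000224.2 between 97.6% and 98.7% of that of KRT18 in the 4 groups.

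**Figure D3:**
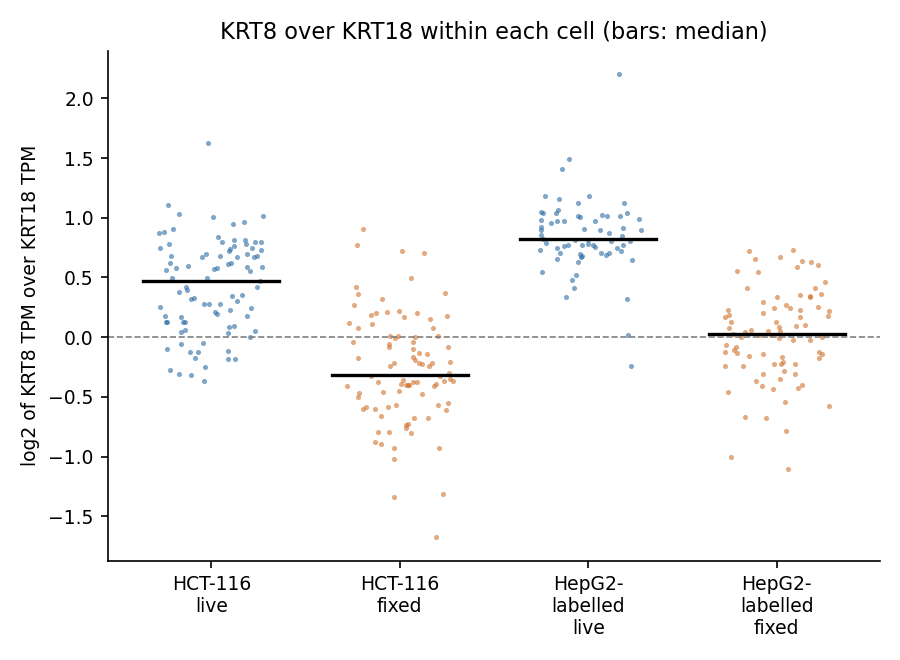
Log2 of the KRT8 TPM over the KRT18 TPM within each cell, with 1 point per cell, a bar at the median of the group and a dashed line where both are equal. The medians are 0.47 (live) and -0.31 (fixed) for HCT-116 and 0.82 and 0.02 in live and fixed HepG2-labelled cells.

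The other ratios moved less. KRT8 over KRT19 had a median log2 of 1.13 in live and 0.57 in fixed cells of HCT-116, and of 2.23 and 2.03 in live and fixed HepG2-labelled cells, differences below the SDs over cells (0.58 to 0.95). KRT19 over KRT18 differed by -0.04 between the medians in HCT-116 and by -0.58 in the HepG2-labelled line, again less than the SD within either group. Summing all members, type II exceeded type I in 14 of 91 live and 0 of 92 fixed HCT-116 cells (which allows a share of up to 3.26% by the limit of 3 cells in 92, upper bound of the exact interval 3.93%), and in 64 of 68 live and 12 of 83 fixed HepG2-labelled cells. The median log2 of type II over type I was -0.36 (live) and -0.95 (fixed) for HCT-116 and 0.39 and -0.33 in live and fixed HepG2-labelled cells. In TPM, live HepG2-labelled cells were thus the sole group in which type II keratin mRNA outweighed type I in most cells. This too depends on the unit: in CPM, type II exceeded type I in 65 of 68 live and 42 of 83 fixed HepG2-labelled cells, and in 41 of 91 live and 2 of 92 fixed HCT-116 cells.

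Over the cells of a group, KRT8 and KRT18 varied together more than any other pair of members that were each found in 50% or more of the group's cells. Their Spearman correlation was 0.78 in live (91 cells) and 0.79 in fixed cells (92) of HCT-116, and 0.93 in live (68 cells) and 0.78 in fixed HepG2-labelled cells (83 cells). In each of the 4 groups KRT18 ranked 1st for KRT8, and KRT8 1st for KRT18, among the 9742 to 13419 genes found in 50% or more of a group's cells. The 2 genes share their libraries and differ in depth between cells. With the number of genes detected taken out, the coefficients were 0.77 and 0.78 in live and fixed HCT-116 and 0.94 and 0.78 in live and fixed HepG2-labelled cells. The plain coefficient of the fixed HepG2-labelled cells was 0.82 without the 6 similar columns, which were left out after their values had been seen.

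**Figure D4:**
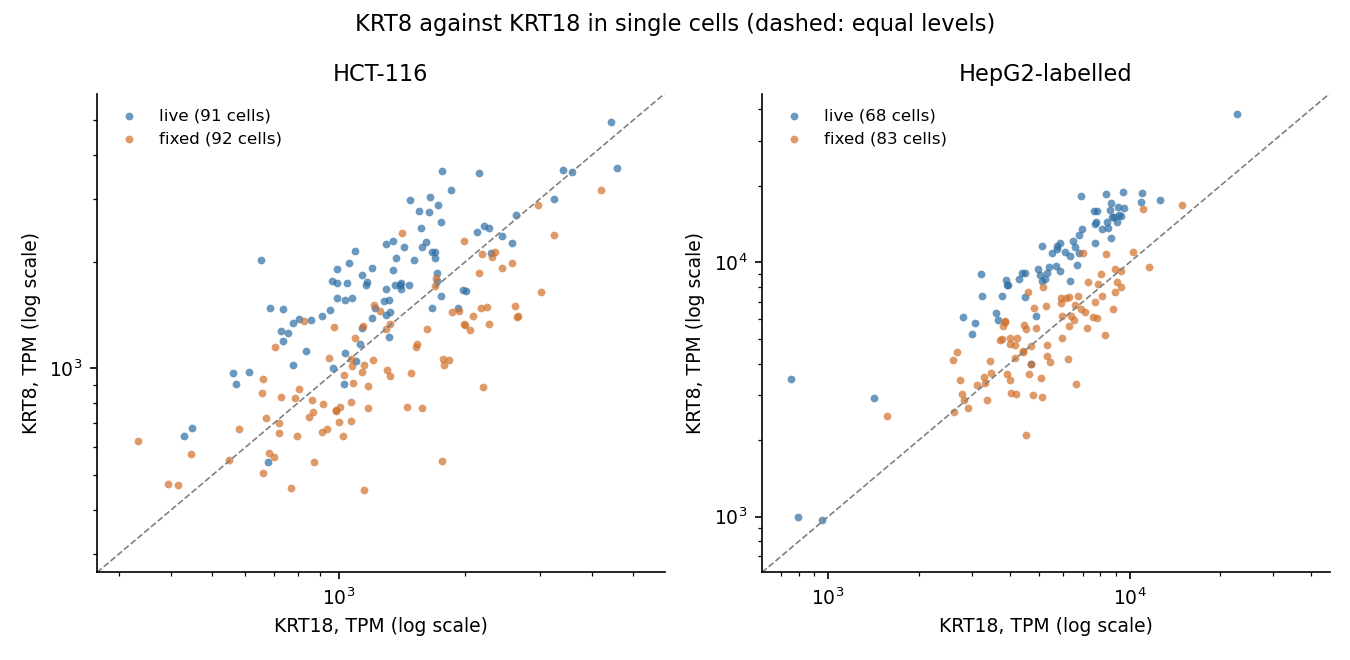
KRT8 against KRT18 in TPM, both axes logarithmic, with 1 point per cell, live cells in blue and fixed cells in orange; the dashed line marks equal levels. The 2 genes vary together in each group (Spearman 0.78 and 0.79 in live and fixed HCT-116, 0.93 and 0.78 in live and fixed HepG2-labelled cells), and at the same KRT18 the fixed cells mostly lie lower in KRT8.

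KRT19 had higher coefficients with KRT8 in the HepG2-labelled cells than in HCT-116, a difference that was not tested. Its Spearman correlation with KRT8 was 0.71 in live and 0.72 in fixed HepG2-labelled cells, rank 2 among the genes compared with KRT8 in both groups, and 0.42 (rank 4) and 0.33 (rank 37) in live and fixed HCT-116 cells. With KRT18, a gene of its own type, KRT19 correlated at 0.59 and 0.43 in live and fixed HepG2-labelled cells and at 0.17 and 0.08 in live and fixed HCT-116 cells. Among the members, KRT80 correlated best with another type II gene, KRT7, at 0.44 in live and 0.55 in fixed HepG2-labelled cells. For KRT10, each coefficient with another member lay between -0.10 and 0.24.

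The genes outside the set with the most similar pattern differed between groups. For KRT8 the nearest in live HCT-116 cells were LASP1 (0.47), an actin-binding protein gene, IGFBP6 (0.45) and S100A6 (0.42), and in fixed ones ANXA3 (0.51), METTL15 (0.42) and MFSD3 (0.40). The HepG2-labelled cells had EWSR1 (0.63), PES1 (0.62) and GRB2 (0.61) when live and CAPN1 (0.59), a calpain protease gene, USP5 (0.57) and PRPF6 (0.56) when fixed. KRT18 shared LASP1 (0.48) with KRT8 as the nearest gene in live and ANXA3 (0.51) in fixed HCT-116 cells, followed by CCND1 (0.42) and ITGB4 (0.41) in live cells and by EZR (0.47) and CENPB (0.45) in fixed ones. With the HepG2 label its nearest genes were LCMT1 (0.56), EWSR1 (0.55) and PES1 (0.55) in live and FKBP4 (0.53), RAB5C (0.50) and IDH2 (0.49) in fixed cells.

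KRT19 had the same nearest gene in both HCT-116 groups: KRT15, a type I keratin of basal cells that is also encoded on chromosome 17, at 0.63 in live and 0.52 in fixed cells. KRT15 was followed by LINC00173 (0.51) and JUP (0.46), the gene of plakoglobin, in live cells and by FLJ20021 (0.47) and BCKDHA (0.45) in fixed cells. In the HepG2-labelled cells the nearest genes of KRT19 were SLC9A3R1 (0.59), PQLC3 (0.56) and CXXC5 (0.56) when live and CAPN1 (0.66), ESRP2 (0.55), an epithelial splicing factor gene, and WBP1 (0.53) when fixed. These coefficients were picked as the highest of many over 68 to 92 cells and describe these cells only.

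The level of each member was then compared between treatments, as the log2 ratio of mean TPM in fixed to live cells. Since the columns could be assigned to no replicate, a member was counted as higher or lower where the ratio was at least 1.5-fold. In HCT-116, 3 of the 8 members were lower and 1 was higher, where 16.4% of all 11813 genes with an average of at least 1 TPM were lower and 12.3% higher. In the HepG2-labelled line, 3 of 7 members were lower and 3 higher, against 17.6% and 15.6% of 12486 genes, with KRT23 too low to compare. The median log2 ratio over the members was -0.21 in HCT-116 and -0.17 in the HepG2-labelled line, and over all genes 0.17 and 0.15. The scale itself moved with the treatment, since RNA18S5, the 18S ribosomal RNA gene, had a mean of 255152 TPM in live and 76548 in fixed cells of HCT-116, and of 55075 and 22615 in live and fixed HepG2-labelled cells.

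KRT8 was lower in fixed cells of both lines under each of the settings tried. Its mean was 1902 ± 776 TPM in live HCT-116 cells against 1138 ± 550 TPM after fixation, a log2 ratio of -0.74, and 11421 ± 5485 and 5801 ± 2696 TPM in the HepG2-labelled cells, a log2 ratio of -0.98. With ribosomal RNA left out the ratios were -1.05 and -1.15. KRT18 stayed within 1.5-fold under each setting, with 1464.5 ± 764 and 1406 ± 734 TPM in HCT-116, live and fixed (log2 ratio -0.06, and from -0.37 to 0.12 over the settings) and 6390 ± 3219 and 5688 ± 2384 TPM in the HepG2-labelled ones (-0.17). All of these differences but that of KRT8 in the HepG2-labelled line were smaller than the SD over live cells, which spans cells of very unequal level. KRT19 had log2 ratios of -0.31 in HCT-116 and -0.64 in the HepG2-labelled line. With ribosomal RNA left out the HCT-116 value became -0.63, past the 1.5-fold limit, and among cells paired on reads the HepG2-labelled one became -0.57, short of it.

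Calls for most of the low members changed with the setting. In HCT-116, KRT80 (log2 ratio -1.08) and KRT81 (-0.72) were lower and KRT23 (0.90) was higher in fixed cells, but the 3 highest cells held 41.7% of all KRT23 TPM in the fixed group, and on the mean of log2(TPM + 1) the 3 values were -0.31, -0.28 and 0.38. KRT80 stayed past the limit after rescaling by the median ratio (-1.36), without ribosomal RNA (-1.40) and among cells paired on reads (-1.12). KRT81 stayed past it under the first 2 of these (-1.03 and -1.05) and not among paired cells (-0.24), and KRT23 likewise (0.64, 0.59 and 0.54). In the HepG2-labelled line KRT80 was lower (-0.75) by means, at -0.40 by medians and at 0.01 among cells paired on reads. The 3 highest live cells held 32.8% of the KRT80 TPM of their group, and their part in these values was not tested. KRT10 (0.59) and KRT81 (0.61) were just past the limit, and short of it (0.35 and 0.17) after each cell was rescaled by the median ratio of its broadly detected genes. KRT7 was higher in fixed HepG2-labelled cells under all settings tried, with 5.71 ± 10.7 TPM in live cells against 12.03 ± 12.1 TPM in fixed ones (log2 ratio 1.07). Most of its matched transcript signal there, 75.1% in live and 72.99% in fixed cells, was on a predicted transcript, XM_017019294.1, while the curated one, NM_005556.3, was above 0 in 3 of 68 live and 7 of 83 fixed cells.

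**Figure D5:**
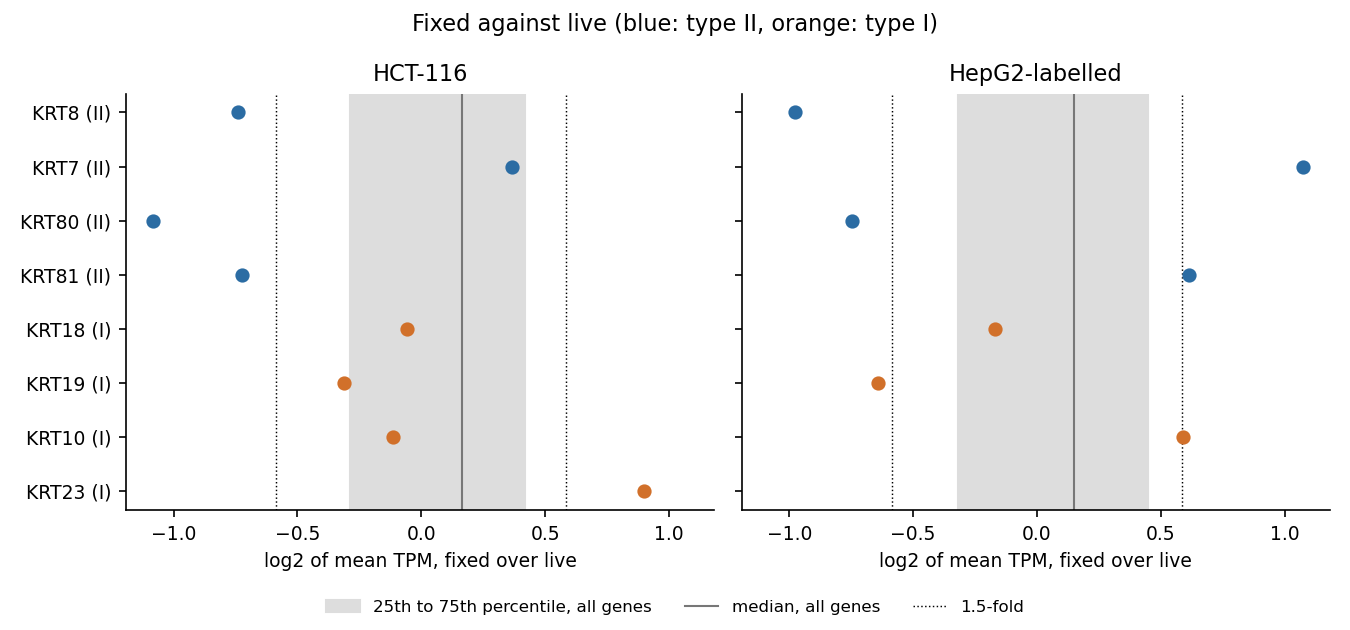
Log2 ratio of mean TPM in fixed to live cells for each member in each line (type II in blue, type I in orange), with the median and the range from the 25th to the 75th percentile of all genes in grey and dotted lines at 1.5-fold. KRT8 lies at -0.74 and -0.98 and KRT18 at -0.06 and -0.17 in HCT-116 and the HepG2-labelled line; KRT23 is left out in the latter, where it was too low.

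Between the lines, the tables of which were normalized separately, KRT8, KRT18, KRT19 and KRT80 had higher means in the HepG2-labelled cells. A 2-fold limit was used here. Of the 8 members, 4 were higher and 1 was lower in live HepG2-labelled than in live HCT-116 cells, where 22% of 12481 genes were higher and 18.7% lower. Among fixed cells 5 were higher and 1 was lower, against 22% and 18% of 12232 genes. KRT8 was 6.004-fold higher in live and 5.10-fold higher in fixed cells, and 63 of 68 live and 72 of 83 fixed HepG2-labelled cells lay above every HCT-116 cell of the same treatment. KRT18 was 4.36-fold and 4.04-fold higher, with 49 of 68 live and 56 of 83 fixed cells above every HCT-116 cell.

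The type II member KRT80 differed most in the upward direction, 15.9-fold higher in live and 20.1-fold higher in fixed HepG2-labelled cells, with means of 77.4 ± 134.6 against 4.86 ± 11.02 TPM live and 46.1 ± 48.5 against 2.29 ± 4.83 TPM fixed. KRT19 was 2.42-fold higher live and 1.93-fold higher fixed, the latter short of the limit. KRT7 and KRT81 passed the limit in fixed cells only, where they were 2.12-fold and 2.28-fold higher, but whether live and fixed cells differ in this was not tested. KRT23 was the one lower member, with means of 8.49 ± 16.9 TPM (live) and 15.8 ± 38.8 TPM (fixed) in HCT-116 against 0.0118 ± 0.0570 and 0.0459 ± 0.363 TPM in live and fixed HepG2-labelled cells. Genes with a TPM near 0 give no stable ratio, so none is given for it. RNA18S5 was 4.63-fold lower in live and 3.38-fold lower in fixed HepG2-labelled cells, and leaving ribosomal RNA out changed no call among the members.

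Variation between cells was widest in the rarer genes, which also had far lower means than KRT8, KRT18 and KRT19. The CVs below thus compare genes at unlike levels and do not rank them by evenness of expression. The CV of TPM over cells was between 0.41 and 0.52 for KRT8 and KRT18 in the 4 groups and between 0.47 and 0.73 for KRT19. KRT10 had CVs of 0.43 to 0.61. KRT80 had CVs of 2.27 and 2.11 in live and fixed HCT-116 cells and of 1.74 and 1.05 in live and fixed HepG2-labelled cells. The pair of live HepG2-labelled cells with the least keratin had KRT8 at 993 and 971 TPM and a sum of KRT8, KRT18 and KRT19 of 2319 and 2811 TPM against a group median of 19462 TPM. They had 1.5 and 2.1 M reads and 13676 and 13885 genes detected, and 51.1% and 52.9% of their reads were assigned to a transcript, where the group median was 75.7%.

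Other keratins were scarce. Of 31 further keratin genes listed in HCT-116, 27 had a mean below 1 TPM in both groups, as did 30 of 35 in the HepG2-labelled line. KRT15 reached a mean of 10.6 ± 19.1 TPM in live HCT-116 cells against 10.7 ± 13.96 TPM after fixation. KRT4, a type II keratin of stratified mucosa, had 2.05 ± 9.32 TPM in live HepG2-labelled cells against 15.1 ± 50.9 TPM after fixation, where the 3 highest cells held 58.03% of the fixed sum. KRT1, the epidermal partner of KRT10, was looked up after its values had been seen and had means of 0.0182 and 0.00198 TPM in HCT-116, live and fixed, and of 0.140 and 0.0329 TPM in live and fixed HepG2-labelled cells, so that KRT10 was present without it at any sizeable level.

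Genes of keratin attachment, other intermediate filaments, keratin binding and turnover, and epithelial adhesion were taken as 4 lists, described by counts. These are to be read against the 12.3% higher and 16.4% lower of all genes in HCT-116 and the 15.6% and 17.6% in the HepG2-labelled line. Of 14 genes of keratin attachment and the desmosome, 11 could be compared in HCT-116, where 2 were higher and 3 lower in fixed cells (median log2 ratio -0.34), and 12 in the HepG2-labelled line, where 2 were higher and 4 lower (-0.39). PKP3, the gene of plakophilin-3 of the desmosome, went from 30.02 to 2.95 TPM in HCT-116 and from 42.2 to 3.96 TPM in the HepG2-labelled line. JUP (log2 ratios -0.41 and -0.47), DSP (-0.43 and -0.38), the gene of desmoplakin, and DSG2 (0.42 and -0.15) stayed within 1.5-fold. Of 13 other intermediate filament genes, 6 could be compared in HCT-116 and 5 in the HepG2-labelled line, with 3 and 5 of them lower and none higher (median log2 ratios -1.01 and -1.06). Only LMNA, LMNB1 and LMNB2, which encode nuclear lamins, exceeded 1 TPM in 50% or more of the cells of a group. The others compared were found in fewer cells, so their ratios are less certain. LMNA, the gene of the nuclear lamins A and C, went from 193 to 60.5 TPM and from 160 to 49.3 TPM.

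Of the 14 genes of keratin binding and turnover, 12 could be compared in HCT-116, with 2 higher and 4 lower, and 14 in the HepG2-labelled line, with 4 higher and 2 lower, beside 12.3% and 16.4% of all genes in HCT-116 and 15.6% and 17.6% in the HepG2-labelled line. HSPA8, a chaperone gene, had means of 970 and 1192 TPM in HCT-116, live and fixed, and of 619 and 896 TPM in live and fixed HepG2-labelled cells, both within 1.5-fold. YWHAE, a gene of the 14-3-3 family, which binds phosphorylated keratins, had log2 ratios of 0.47 and 0.80. The family did not move as one: YWHAH stayed within 1.5-fold (0.008 and 0.38). SFN was lower in HCT-116 (-0.59) and within the limit in the HepG2-labelled line (0.48). Among 7 genes of epithelial adhesion, ESRP2 was lower in HCT-116 (log2 ratio -1.56) and, together with CDH1 (E-cadherin, -0.66), in the HepG2-labelled line (-1.18), with median log2 ratios over the list of 0.02 and 0.03. The remaining genes of this list stayed within 1.5-fold in both lines, among them EPCAM (0.39 and 0.03) and ESRP1 (0.20 and 0.54). The median log2 ratios over all genes, 0.17 and 0.15, are the background for these lists.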

How the data were processed

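The authors quantified Smart-seq2 reads with kallisto 0.46.0 against GRCh38 transcripts, summed them to genes with tximport and kept cells with more than 4000 genes. The deposited gene values of each line are TPM. The transcript values were deposited as TPM but are CPM, not divided by length. Of 346 labelled cells, 334 had a column. Column names give the group and not the single sample. The spacing of a cell's CPM values gave its total reads, to 0.1 M. RefSeq accessions matched a gene for 61.7% (HCT-116) and 61.8% (HepG2) of the transcripts and for 98.3% of the curated ones.

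Means, medians, SDs, ratios of means, ratios within cells and Spearman correlations were computed per group in Python 3.11.15 with numpy 2.4.6, scipy 1.17.1, pandas 2.3.3 and matplotlib 3.10.9. No test between groups was run, since cells are not replicates. Ratios of means used genes with an average of both group means of at least 1 TPM. Keratins and list genes beyond the members were named only if above 10 TPM in a group, and not every such gene is named. The 3 genes nearest to KRT8, KRT18 and KRT19 are named too, with RNA18S5 for the scaling. KRT1, KRT86, CDX2 and the markers named by their list fall outside the 10 TPM rule. The members and lists were chosen with earlier results of these data known. Reference transcripts are MANE Select (GENCODE release 44). The computations were tested on simulated data, and all 23 checks passed. Of 200 genes changed by a log2 ratio of 1, 99.5% were called in HCT-116 and 100% in HepG2 (7283 and 7416 genes simulated). The change made was larger than the 1.5-fold limit, so these percentages describe the working of the code only. How reliable the calls of low and variable members such as KRT81 and KRT80 are was not tested. Alternatives were other scalings, pseudocounts of 1 and 0.1, medians, other thresholds, thinned reads, cells paired on reads, and columns left out.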

Additional observations from a re-analysis of the deposited data

Results flagged for a closer look

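KRT81 was past the 1.5-fold limit in opposite directions in the lines, fixed over live (log2 of the ratio of means): -0.72 in HCT-116 and 0.61 in HepG2-labelled cells. The difference between the lines was not tested. The gene was above 0 in 20 of 91 live and 11 of 92 fixed HCT-116 cells and in 28 of 68 live and 39 of 83 fixed HepG2-labelled cells, and the 3 highest cells of each group held between 51.5% and 70.9% of its TPM. Without the 6 very similar fixed columns, left out after seeing the data, the HepG2-labelled value was 0.57, short of the limit. It was also short of the limit after rescaling by the median ratio, as was the HCT-116 value among cells paired on reads. In fixed HepG2-labelled cells the highest cell had 83.8 TPM of KRT81, against a group mean of 2.88 TPM. The ratio without that cell was not computed.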

How the results depend on the processing

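Under the alternatives, 517 of 589 values kept their call or stayed within 1.5 times (0.1 for a correlation) of the value reported. The shift in KRT8 over KRT18, the correlation of the pair, the calls of KRT8 and KRT18 and the make-up of the pool were among them under each alternative run for them. In HCT-116 the number of members higher in fixed cells was 0, in place of 1, with means of log2(TPM + 1) or log2(TPM + 0.1), by medians and among cells paired on reads, and the number lower was 1, in place of 3, with means of log2(TPM + 1) and by medians. In the HepG2-labelled line the number higher was 1, in place of 3, after rescaling by the median ratio, without ribosomal RNA, on either log scale and by medians, and the number lower was 1 among cells paired on reads, where KRT80 turned to 0.0063 and KRT19 came to -0.57. KRT19 passed the limit in HCT-116 without ribosomal RNA (-0.63) and between fixed cells of the lines on log2(TPM + 1) (1.02). With all genes above 0 in both groups, the background was 20.1% higher in HCT-116 and 30.4% lower in the HepG2-labelled line. Thinned reads left 3 members in all live HepG2-labelled cells, in place of 5, and gave shares for KRT7 of 25.3% and 28.1% in live and fixed HCT-116 and of 44.1% and 66.3% in live and fixed HepG2-labelled cells, counting matched transcripts only. Rescaling by the median ratio gave KRT18 a CV of 0.66 in fixed HepG2-labelled cells, in place of 0.42. By medians KRT23 and KRT81 in both lines and KRT80 in HCT-116 gave no ratio, since a median was 0, and could not be counted. The cause of the other changes was not tested. No paired analysis was possible because live and fixed cells are different cells and the labels name no pairs. HCT-116 was run once and the HepG2-labelled columns cannot be assigned to an experiment, so the spread between experiments is not known here.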
